A study of Arabidopsis thaliana with 12 samples.

Results

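PYK10 (AT3G09260, also called BGLU23), JAL23 (AT2G39330) and AT1G54020 are 3 Arabidopsis thaliana genes grouped here around a beta-glucosidase defence system. PYK10 encodes a beta-glucosidase of the endoplasmic reticulum (ER), JAL23 a jacalin-related lectin, and AT1G54020 a GDSL-type lipase of the myrosinase-associated family. They were taken by gene from the annotation of the array, where each had 1 probe set, so they are 3 of the 22746 probe sets tested and of the 13513 that carry a single gene name. The genes were chosen by earlier results of these arrays, in which JAL23 and AT1G54020 were among the named genes with larger values at 26 °C. The temperature differences of all 3 are therefore given as a description, without a test.

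ER bodies are spindle-shaped compartments derived from the endoplasmic reticulum, found in the epidermis of Brassicaceae seedlings and in roots, and PYK10 is their main protein. When cells are crushed, PYK10 meets its substrates from the vacuole, among them indole glucosinolates, and forms large complexes with jacalin-related lectins and GDSL lipase-like proteins. The bHLH factor NAI1 controls PYK10 and NAI2, and NAI2 is needed for the compartments to form. A related glucosidase, BGLU18, is known for ER bodies that appear after wounding or methyl jasmonate. AT1G54020 is linked to this system by its family, and the arrays hold no measurement of complexes or ER bodies.

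The 12 one-colour arrays came from wild-type seedlings (ecotype Columbia) harvested at an age of 10 days, of which the aerial parts were used. Every group was kept under continuous white light and 22 °C for its first 9 days. A treatment of 24 h followed, in 4 conditions of 3 biological replicates each. These were white light at 22 °C (WL 22), white light with supplemental far-red at 22 °C (WFR 22), white light at 26 °C (WL 26) and supplemental far-red at 26 °C (WFR 26). Supplemental far-red imitates the light reflected by neighbouring leaves, and the design varied it independently of temperature.

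Values are log2 expression per probe set, as deposited. The array medians ran from 6.91 to 7.01. Precision is limited by having 3 arrays per condition. Of 19 green leaf markers written, 2 had a named probe set: the log2 value of RCA, the Rubisco activase, was 14.39 to 14.51 and that of the light-harvesting gene LHCB4.1 13.89 to 14.13. Of 19 root markers, the root hair expansins EXPA7 and EXPA18 were named. EXPA7 lay between 4.80 and 5.37 and EXPA18 between 4.78 and 5.65. None of 6 epidermis markers had a named probe set. Whole aerial parts were extracted, so more cells of a type and more RNA per cell cannot be told apart.

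PYK10 had log2 values of 11.75, 11.49 and 11.77 on the 3 arrays of WL 22, and 12.05, 12.09 and 12.28 on those of WL 26. Every array of WL 26 was above every array of WL 22. For this and later separations of 3 arrays from 3, the share over all probe sets was not counted, so nothing is read from them. Under supplemental far-red the values were 11.71, 12.02 and 12.12 at 22 °C and 11.93, 12.16 and 11.97 at 26 °C. These 2 conditions overlapped. The mean was lowest in WL 22, at 11.67 ± 0.158 (SD, n = 3 here and below), then came WFR 22 at 11.95 ± 0.215, WFR 26 at 12.02 ± 0.128 and WL 26 at 12.14 ± 0.121. The steps between the upper 3 conditions, 0.067 and 0.12, were smaller than the pooled SD of 0.16, and the step from WL 22 to WFR 22, 0.28, was larger. Pooled SDs, in this and the next paragraphs, are of single arrays over the 4 conditions. They are not the error of a difference of means and test no step.

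JAL23 had log2 values of 5.89, 5.55 and 5.47 in WL 22 and of 5.21, 5.73 and 5.86 in WFR 22. In WL 26 its values were 6.54, 6.70 and 8.31, and in WFR 26 they were 6.19, 8.22 and 6.74. All 6 arrays from 26 °C were above all 6 from 22 °C. This holds for 1.71% of all probe sets, a share from which nothing is read, since JAL23 was chosen by its temperature difference. Spread was much larger at 26 °C: SDs were 0.98 in WL 26 and 1.05 in WFR 26, against 0.222 and 0.343 at 22 °C. By level the conditions fell into 2 pairs, with means of 5.60 (WFR 22) and 5.63 (WL 22) below 7.05 (WFR 26) and 7.18 (WL 26), and the steps within each pair, 0.036 and 0.13, were smaller than the pooled SD of 0.75.

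AT1G54020 had log2 values of 5.29, 4.65 and 4.67 in WL 22 and of 4.93, 5.60 and 4.96 in WFR 22. At 26 °C they were 6.42, 5.97 and 7.40 in white light and 5.51, 7.22 and 5.55 with far-red. In white light the temperatures did not overlap. With far-red they did, since the highest array at 22 °C stood above 2 of the 3 arrays at 26 °C. The means rank as WL 22 (4.87 ± 0.364), WFR 22 (5.16 ± 0.378), WFR 26 (6.09 ± 0.975) and WL 26 (6.60 ± 0.731), and of the steps between neighbours the one from WFR 22 to WFR 26, 0.93, was the only one above the pooled SD of 0.66.

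**Figure D1:**
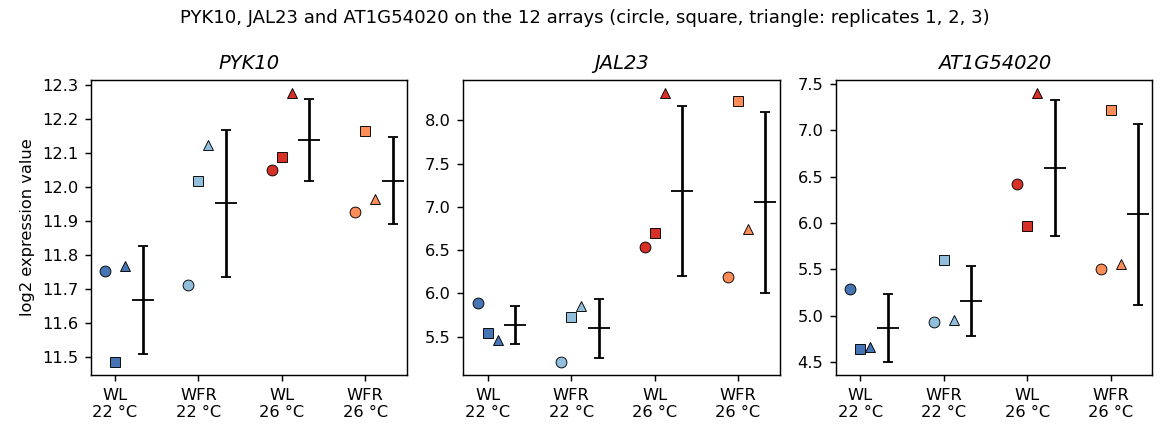
Log2 expression value (vertical axis, a different range in each panel) of PYK10, JAL23 and AT1G54020 on each array by condition. Points are single arrays and bars are means with SD (n = 3). JAL23 at 26 °C lies between 6.19 and 8.31, above its 5.21 to 5.89 at 22 °C, and in all panels the highest point of WL 26 is replicate 3 and that of WFR 26 is replicate 2.

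As log2 differences between 26 and 22 °C, with the standard error (SE) of a limma linear model fitted to all probe sets, PYK10 was higher by 0.47 ± 0.113 in white light and by 0.067 ± 0.113 under far-red. JAL23 was higher by 1.55 ± 0.464 and 1.45 ± 0.464, and AT1G54020 by 1.73 ± 0.413 and 0.93 ± 0.413. Averaged over both lights this is 1.2-fold for PYK10, 2.83-fold for JAL23 and 2.51-fold for AT1G54020. Replicate 3 of WL 26 and replicate 2 of WFR 26 held the highest values of all 3 genes in their conditions. Without WL 26 replicate 3, the white light difference of JAL23 was 0.99 in place of 1.55. Without WFR 26 replicate 2, the differences under far-red were 0.87 in place of 1.45 for JAL23 and 0.37 in place of 0.93 for AT1G54020. Without both arrays, an alternative chosen after seeing the data, the average differences were 0.20 ± 0.0852 for PYK10, 0.93 ± 0.139 for JAL23 and 0.85 ± 0.158 for AT1G54020.

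The far-red differences were not what the genes were picked for, and none of the 3 passed the test. A probe set was called at a Benjamini-Hochberg adjusted p under 0.05 over all probe sets (limma, two-sided). At 22 °C, 0 of 3 were called, where 0.659% of all probe sets were. PYK10 differed by 0.28 ± 0.113 (adjusted p = 0.30; unadjusted p = 0.025), JAL23 by -0.036 ± 0.464 (adjusted p = 0.984) and AT1G54020 by 0.30 ± 0.413 (adjusted p = 0.805). The 95% interval of the PYK10 difference ran from 0.041 to 0.53, that of JAL23 from -1.03 to 0.96 and that of AT1G54020 from -0.59 to 1.18. The fit gives each gene 1 spread for all 4 conditions. SDs at 22 °C were 0.222 and 0.343 for JAL23 and 0.364 and 0.378 for AT1G54020. At 26 °C they were 0.98 and 1.05, and 0.731 and 0.975. For these 2 genes the SEs and intervals ignore that inequality. They overstate the error at 22 °C and understate it at 26 °C.

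At 26 °C the far-red differences were -0.12 ± 0.113 for PYK10, -0.13 ± 0.464 for JAL23 and -0.50 ± 0.413 for AT1G54020 (limma, adjusted p = 0.893, 0.981 and 0.866). Again 0 of 3 were called, against 0.0879% of all probe sets. Averaged over temperatures, where 1.12% of probe sets were called, PYK10 differed by 0.082 ± 0.0798, JAL23 by -0.085 ± 0.328 and AT1G54020 by -0.10 ± 0.292 (adjusted p = 0.69, 0.94 and 0.914). Without WL 26 replicate 3 the average was 0.20 for JAL23 and 0.097 for AT1G54020, and without WFR 26 replicate 2 it was -0.38 for both. The difference of AT1G54020 at 22 °C was 0.077 without WFR 22 replicate 2 and 0.51 without WL 22 replicate 1. Its difference at 26 °C was -0.10 without WL 26 replicate 3 and -1.07 without WFR 26 replicate 2.

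Whether the temperature difference depends on the light was tested as the interaction, the difference under far-red minus that in white light. The 3 genes were chosen by earlier results of these arrays, and a choice by a large white light difference would favour negative values. The interaction is therefore given with p-values that may not be independent of that choice. It was -0.40 ± 0.16 for PYK10 (limma, adjusted p = 0.902; unadjusted p = 0.0244), -0.099 ± 0.656 for JAL23 (adjusted p = 0.996) and -0.80 ± 0.584 for AT1G54020 (adjusted p = 0.96). None was called. The same fit called 0% of all 22746 probe sets for this comparison, with 1254 at an unadjusted p under 0.05, so the larger PYK10 difference in white light is not shown to differ from that under far-red. For AT1G54020 the interaction was -0.40 without WL 26 replicate 3 and -1.36 without WFR 26 replicate 2. The -0.40 of PYK10 was -0.41 without WL 26 replicate 3 and WFR 26 replicate 2 together.

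The ER-body system was followed through 22 other listed genes, of which 9 had a named probe set. They comprised 3 lectins, 4 glucosidases and the formation genes NAI1 and NAI2, and none of the 3 listed GDSL lipase-like genes. On average over both lights, the lectins JAL22 and JAL33 rose from 22 to 26 °C, and the other 7 did not pass the test. That is 2 of 9 higher and 0 lower, where the limma test called 5.39% of the table, 2.92% as higher and 2.48% as lower. The list was written with earlier results of these data known, so the count is not independent of them. The median difference of the 9 was 0.15, against -0.0064 over all probe sets.

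JAL22, a lectin found in the PYK10 complex and the gene next but one to JAL23 on chromosome 2, had log2 values of 9.53, 9.43 and 9.69 in WL 22, and 9.91, 9.83 and 10.49 in WL 26. Under far-red it had 9.74, 9.60 and 9.96 at 22 °C and 9.98, 10.09 and 10.21 at 26 °C. Each light by itself separated the temperatures, under far-red only by 9.96 against 9.98, and over both lights together they overlapped. The average difference was 0.43 ± 0.103 (limma, adjusted p = 0.029).

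JAL33, also a lectin of this family, had 9.65, 9.36 and 9.75 in WL 22 and 10.16, 10.04 and 10.42 in WL 26. With far-red it had 9.37, 9.42 and 9.83 at 22 °C and 9.49, 10.08 and 9.79 at 26 °C. The temperatures were apart in white light and overlapped under far-red. Its average difference was 0.44 ± 0.111 (limma, adjusted p = 0.0361).

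With any 1 array left out, the average difference stayed positive, at 0.32 to 0.49 for JAL22 and 0.36 to 0.51 for JAL33, but the calls did not all hold. JAL22 and JAL33 lost them without WL 22 replicate 2 (adjusted p = 0.0714 and 0.0874), WFR 22 replicate 1 (0.0623 and 0.0881) or 2 (0.0669 and 0.0774), or WFR 26 replicate 2 (0.0643 and 0.0886) or 3 (0.0755 and 0.0765). JAL33 also lost it without WL 26 replicate 1 (0.0579) or 3 (0.0862). Without WL 26 replicate 3 and WFR 26 replicate 2 together, 0 of 9 were called, with JAL22 at 0.32 (adjusted p = 0.0695) and JAL33 at 0.31 (adjusted p = 0.172). JAL34 and NAI2 were called as well without WL 22 replicate 3 (adjusted p = 0.0406 and 0.0292), which made 4 of 9. JAL34 was also called without WFR 22 replicate 3 (adjusted p = 0.0366) and NAI2 without WL 26 replicate 1 (adjusted p = 0.0394).

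JAL34, the third measured lectin of the list, had 10.30, 10.10 and 10.63 in WL 22 and 10.82, 10.89 and 10.98 in WL 26, against 10.42, 10.60 and 10.94 in WFR 22 and 10.56, 10.74 and 10.61 in WFR 26. White light separated its temperatures and far-red did not. Its temperature difference was 0.55 ± 0.133 in white light (limma, adjusted p = 0.0893), -0.014 ± 0.133 under far-red (adjusted p = 0.983) and 0.27 ± 0.0943 on average (adjusted p = 0.124).

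NAI2 had 9.11, 8.89 and 9.39 in WL 22, its lowest condition. It had 9.42, 9.62 and 9.60 in WFR 22, 9.42, 9.70 and 9.85 in WL 26, and 9.60, 9.61 and 9.50 in WFR 26. The other 3 conditions overlapped with each other and were all above WL 22, at the closest by 9.42 against 9.39. The share of all probe sets with this pattern was not counted, so nothing is read from it. Its temperature difference was 0.53 ± 0.123 in white light (limma, adjusted p = 0.0809) and 0.018 ± 0.123 under far-red (adjusted p = 0.973), and its far-red difference at 22 °C was 0.42 ± 0.123 (adjusted p = 0.152). NAI1, the bHLH regulator, ranged from 6.97 to 7.41 over all arrays and differed by 0.24 ± 0.0861 with temperature in white light (adjusted p = 0.24) and by 0.053 ± 0.0861 under far-red (adjusted p = 0.848).

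**Figure D2:**
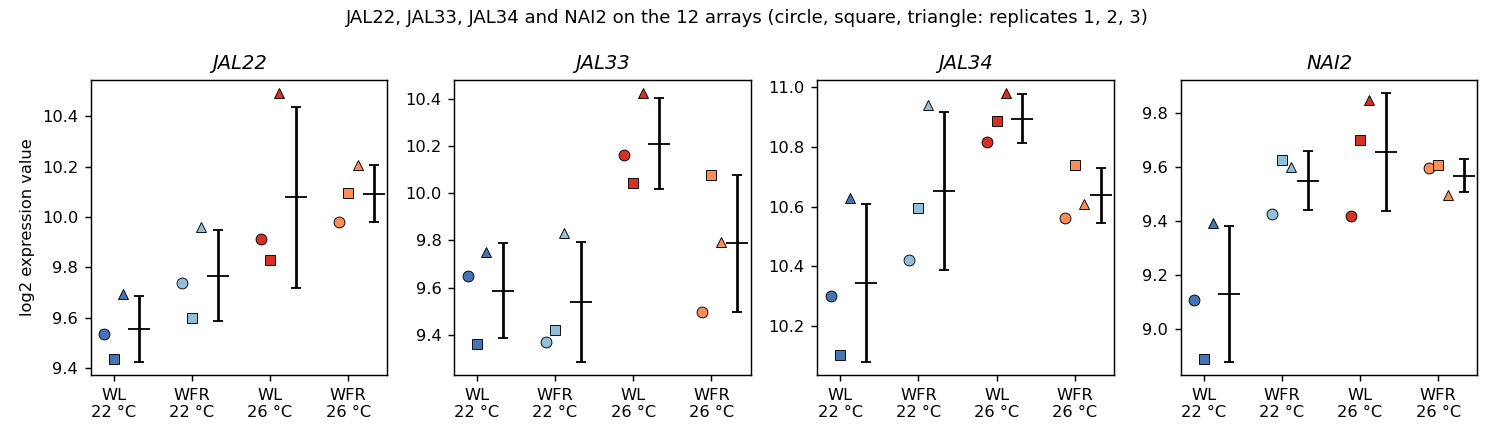
Log2 expression value (vertical axis, a different range in each panel) of the lectin genes JAL22, JAL33 and JAL34 and of NAI2 on each array by condition. Points are single arrays and bars are means with SD (n = 3). NAI2 is lowest in WL 22, at 8.89 to 9.39. JAL34 is above 10.8 on every array of WL 26, and also on replicate 3 of WFR 22 (10.94).

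The 4 measured glucosidases of the list stayed near 0 in the average temperature effect, with differences from -0.018 for BGLU25 to 0.011 for BGLU20, a gene known from anthers, and -0.014 for BGLU19 and -0.0021 for BGLU24 in between. None was called (limma, adjusted p of 0.921 to 0.989). The log2 values of BGLU20 were 3.69 to 3.87 and the lowest of BGLU24 was 3.74, near the lowest value of the whole table, 3.34. BGLU25 ranged from 7.92 to 8.37 and BGLU19 from 4.97 to 5.51. Among the 17 genes named as beta-glucosidases beyond PYK10 and these 4, a family taken by symbol after seeing the data, 1 was called higher at 26 °C and 0 lower, against 2.92% and 2.48% of all probe sets, and the median difference was 0.016. The 1 was BGLU28, a glucosidase induced by sulphur starvation, at 1.02 ± 0.177 (adjusted p = 0.00584).

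In white light alone, 0 of the 9 listed genes were called for temperature (limma; 5 at an unadjusted p under 0.05), where 0.611% of all probe sets were called and 12.8% had such an unadjusted p. Their median difference was 0.24 with 8 of 9 positive, against -0.012 with 45.4% positive over all probe sets. Under far-red 0 of 9 were called (1 at an unadjusted p under 0.05), with 1.1% and 14.1% of all probe sets. The median was 0.018 with 5 of 9 positive, against 0.003 with 51.2% positive. For the interaction 0 of 9 were called (2 at an unadjusted p under 0.05, JAL34 and NAI2, where 5.51% of all probe sets were). Of the 9, 8 were negative with a median of -0.20, against 53% positive with a median of 0.0094 over all probe sets. The interaction contains the white light difference with its sign reversed, so this count partly repeats the 8 of 9 positive there. The genes also share the same arrays. Among the negative values, those of BGLU20 (-0.046 ± 0.0857) and BGLU24 (-0.017 ± 0.0989) were smaller than their SE. Nothing is read from either count. JAL34 had an interaction of -0.56 ± 0.189 and NAI2 one of -0.51 ± 0.174, beside the -0.40 of PYK10, all at an adjusted p = 0.902. PYK10 was chosen, and the list written, with earlier results of these arrays known, so nothing is read from the likeness of these values. For the average far-red effect 0 of 9 were called (1 at an unadjusted p under 0.05, as were 14.5% of all probe sets), with a median of 0.025 against 0.0087.

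**Figure D3:**
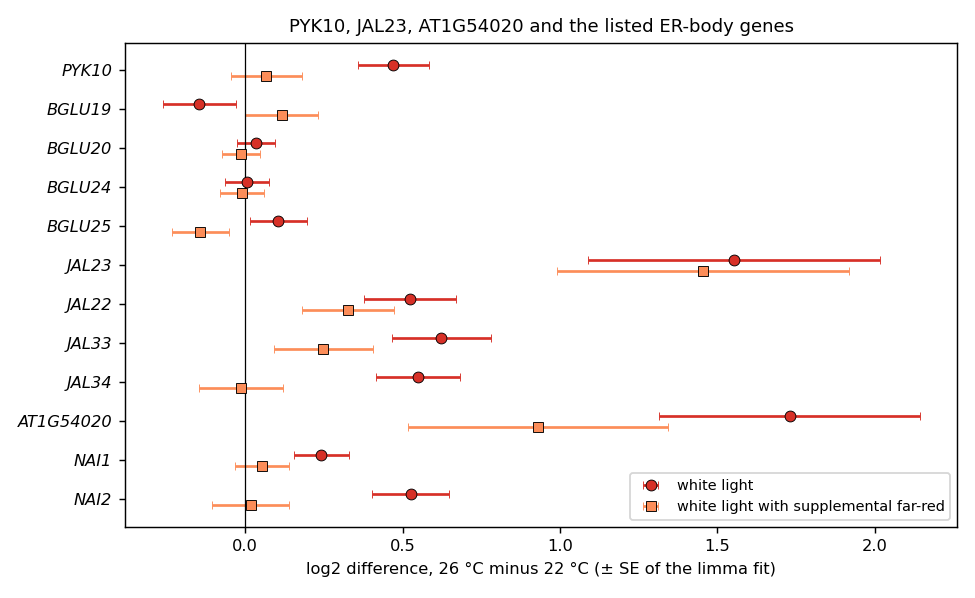
Log2 difference between 26 and 22 °C (horizontal axis) in white light (circles) and with supplemental far-red (squares), with the SE of the fit, for PYK10, JAL23, AT1G54020 and the 9 listed genes (rows). PYK10, JAL34 and NAI2 have values of 0.47 to 0.55 in white light and of -0.014 to 0.067 under far-red, while JAL23 has 1.55 and 1.45.

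The genes closest in pattern were sought among the 13510 other probe sets with a single gene, by Pearson correlation of the log2 values over the 12 arrays. These correlations describe arrays that share conditions, and for that reason the correlation of deviations from condition means is given too. For PYK10 the closest gene of all was JAL34 (r = 0.922, Spearman rho = 0.902), and NAI2 was the third (r = 0.887, rho = 0.818). Deviations from condition means gave 0.845 for JAL34 and 0.72 for NAI2. Leaving out the 2 arrays where PYK10 was farthest from its median, r was 0.83 and 0.721. NAI1 came at rank 20 (r = 0.814), JAL33 at 35 (r = 0.778) and JAL22 at 36 (r = 0.777). The other listed glucosidases had r of 0.019 to 0.405. The rest of the 5 closest to PYK10 were AT1G62660, which encodes a vacuolar invertase (r = 0.919), the receptor kinase gene AT1G61500 (r = 0.882) and RALFL22, a gene of the RALF signalling peptides (r = 0.88).

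JAL23 and AT1G54020 were close to each other (r = 0.94, rho = 0.86, 0.899 for deviations from condition means, and r = 0.797 without the 2 arrays farthest from the median of JAL23). Both values of r, and rho, include the temperature difference for which the 2 genes were chosen. Each correlated less with PYK10, at r = 0.751 for JAL23 and 0.784 for AT1G54020. Of the listed lectins, JAL33 was nearest to both, at rank 44 for JAL23 (r = 0.819) and 53 for AT1G54020 (r = 0.80), and JAL22 was at ranks 62 (r = 0.801) and 171 (r = 0.718). JAL34 was at rank 678 for JAL23 (r = 0.581) and at rank 479 for AT1G54020 (r = 0.602), and NAI2 at ranks 724 (r = 0.569) and 445 (r = 0.609). For both, the closest other gene was JRG21, a jasmonate-inducible oxygenase gene of the family that hydroxylates jasmonate, with r = 0.921 for JAL23 and 0.958 for AT1G54020. Without the 2 arrays farthest from each gene's median these were 0.713 and 0.891. Deviations of JRG21 from its condition means correlated with those of JAL23 at 0.905 and of AT1G54020 at 0.933. JRG21, JAL23 and AT1G54020 all had their largest deviations on WL 26 replicate 3 and WFR 26 replicate 2. How far the correlations of deviations among them rest on those arrays was not tested. In WL 22, JRG21 and JAL23 deviated in the same direction on each array. In WFR 22 they deviated in opposite directions on replicates 1 and 3.

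JRG21 had log2 values from 4.34 to 4.68 at 22 °C. At 26 °C it had 5.51, 5.28 and 6.59 in white light and 4.71, 6.01 and 4.73 with far-red. Its highest arrays were again WL 26 replicate 3 and WFR 26 replicate 2. The others near JAL23 were AT1G14120, another oxygenase gene (r = 0.916), AT2G27830 (r = 0.91), AT4G30460, which encodes a glycine-rich protein (r = 0.901), and AT5G05800 (r = 0.901). Near AT1G54020 were AT2G41380, a methyltransferase gene (r = 0.921), AT3G51450, a strictosidine synthase-like gene (r = 0.913), AT5G05800 (r = 0.912) and THI2.1 (r = 0.906).

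THI2.1, a jasmonate-inducible thionin gene, was 1 of 2 named genes among 14 listed for jasmonate and wounding. Its log2 values were 7.48 on WL 26 replicate 3 and 6.67 on WFR 26 replicate 2, and between 4.43 and 5.57 on the other 10 arrays. Its average temperature difference was 1.03 ± 0.375 and was not called (limma, adjusted p = 0.137). Deviations of THI2.1 from its condition means correlated with those of AT1G54020 at 0.927 and of JAL23 at 0.859. These correlations of deviations include WL 26 replicate 3 and WFR 26 replicate 2 and were not calculated without them. Those 2 arrays are the farthest from the median of AT1G54020. Without them the Pearson r of log2 values between THI2.1 and AT1G54020 was 0.696 in place of 0.906. JMT, which makes methyl jasmonate and is the other named gene of the list, differed by 0.22 ± 0.0928 (adjusted p = 0.198), with 5.97 and 6.35 on the same 2 arrays and 5.46 to 6.20 on the others. The part of these genes in the JAL23 and AT1G54020 differences was not tested.

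**Figure D4:**
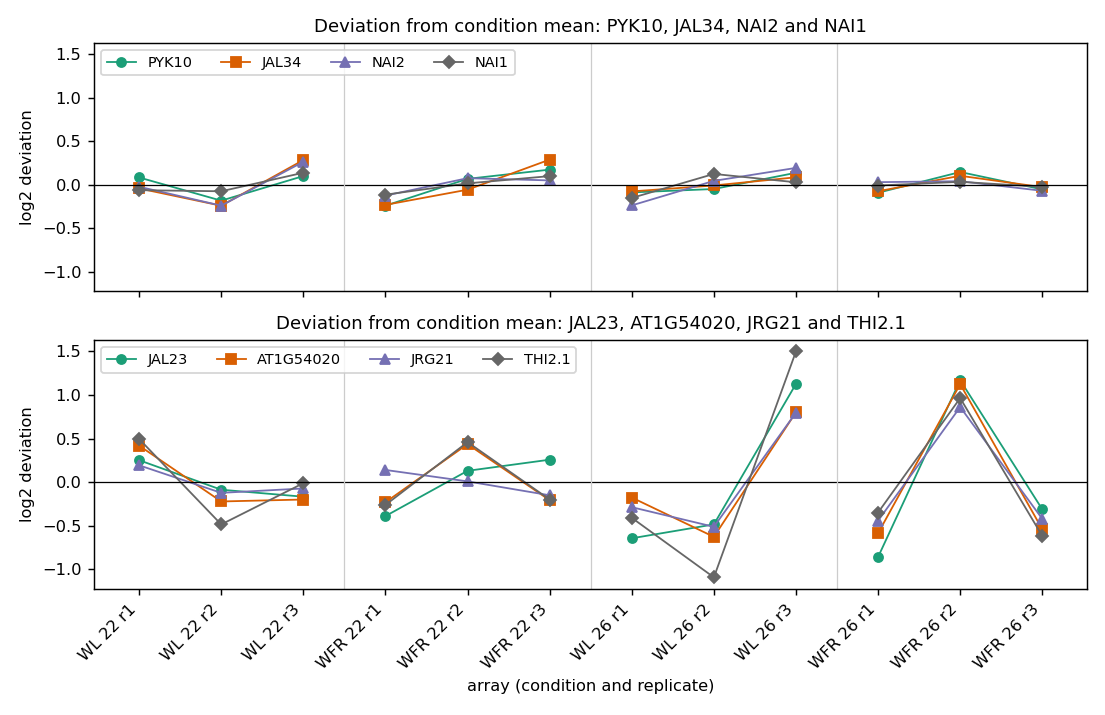
Deviation of each array's log2 value from the mean of its condition (vertical axis) for 2 sets of genes, by array (horizontal axis, r1 to r3 are replicates). The upper panel shows PYK10, JAL34, NAI2 and NAI1. The lower panel shows JAL23, AT1G54020, JRG21 and THI2.1, which all stand above their condition means on replicate 3 of WL 26 (at least 0.80) and replicate 2 of WFR 26 (0.86 to 1.17).

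Other genes around the system gave few values, since few had a named probe set. Of 18 listed genes of indole glucosinolate synthesis only UGT74B1, the glucosyltransferase of the glucosinolate core, was named. It rose by 0.38 ± 0.0665 with temperature (limma, adjusted p = 0.00643), with 10.05 to 10.33 at 22 °C and 10.37 to 10.71 at 26 °C. Of 17 genes of glucosinolate breakdown only BGLU28 was named, with 6.08 to 8.08 at 22 °C and 7.71 to 8.74 at 26 °C. Of 15 genes of protein folding and stress in the ER, 4 were named and 0 were called (3 at an unadjusted p under 0.05), against 5.39% and 19.3% of all probe sets. Among these the stress sensor BZIP28 differed by 0.17 ± 0.0566, the co-chaperone ERDJ3B by 0.14 ± 0.0629 and the calreticulin CRT2 by -0.12 ± 0.0521 (adjusted p = 0.108, 0.224 and 0.213). The root markers EXPA7 and EXPA18 differed with temperature by -0.0062 ± 0.094 and -0.036 ± 0.11 (adjusted p = 0.982 and 0.908), and the leaf markers RCA and LHCB4.1 by 0.035 ± 0.0407 and 0.029 ± 0.0459 (adjusted p = 0.717 and 0.81).

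The chromosome neighbours were compared through the 5 protein-coding genes on each side, with 5.39% of all probe sets called as the background for their counts. Of the 10 neighbours of PYK10, 4 were named and 0 were called for the average temperature effect (limma, differences of -0.057 to 0.020). Of the 5 named neighbours of JAL23, JAL22 was the 1 that was called. Of the 3 named around AT1G54020, AT1G54050, a small heat shock protein gene, rose by 0.39 ± 0.06 (adjusted p = 0.0026). AT1G54020 sits in a row with GLL22, AT1G54010, MVP1 and ESP, genes of GDSL lipase-like proteins and of glucosinolate breakdown, which are not named on this table and were not analysed here.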

How the data were processed

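The members and gene lists were chosen with earlier results of these data known. The authors deposited log2 values, 1 for each probe set on each array. Per the submitters' processing notes the tools were RMA, affy and MAS5, with no version or order, so the step that made these values is unknown here. No scan date or batch is given. Replicates are biological per the labels.

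Of 22810 probe sets, 64 controls were left out and 22746 tested. The platform annotation gave 1 gene for 13513 probe sets, 13436 of them updated through RefSeq records of the TAIR10.1 assembly, used for names and gene order only. Another 503 had several genes and 8730 are unnamed here.

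With limma 3.58.1 (R 4.3.3; lmFit, then eBayes without trend) the 12 arrays were fitted together, each condition with its own mean, giving 8 residual and 5.99 prior degrees of freedom, and was tested on simulated data. Named are the 3 members, all measured ER-body genes, up to 3 genes of each other list with the largest average temperature differences, and the 5 genes closest in pattern to each member. Neighbouring genes were added after their values were seen. Replicates share numbers across conditions. Deviations of same-numbered arrays correlated at -0.259 to 0.12, so the numbers were not taken as pairs. Alternatives were 4 scalings, 2 filters on dim probe sets, eBayes with trend, array weights, a replicate block and leaving out arrays. For far-red at each temperature, a fit of only the 2 conditions compared was a further alternative.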

Additional observations from a re-analysis of the deposited data

How the results depend on the processing

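No alternative run gave a called far-red or interaction difference for PYK10, JAL23 or AT1G54020, and leaving out 1 array kept the sign of their temperature differences except for PYK10 under far-red (-0.053 to 0.15). JAL23 and AT1G54020 had no value in the table without the lowest 50% of probe sets. Leaving out 1 array gave far-red differences for JAL23 of -0.16 to 0.16 at 22 °C, -0.72 to 0.43 at 26 °C and -0.38 to 0.20 on average, and an interaction of -0.68 to 0.47. For AT1G54020 far-red gave 0.077 to 0.51 at 22 °C, -1.07 to -0.10 at 26 °C and -0.38 to 0.097 on average (0.047 with array weights), and the interaction was -1.36 to -0.40. For PYK10 far-red gave 0.19 to 0.40 at 22 °C, -0.19 to -0.051 at 26 °C and 0.036 to 0.14 on average. The cause of the sign changes was not tested. The called ER-body genes for the average temperature effect numbered 0 to 4 without 1 array, 5 with array weights and 0 without WL 26 replicate 3 and WFR 26 replicate 2 together.

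Over all probe sets, leaving out 1 array gave 45 to 135 calls for far-red at 22 °C (150 in the full fit), 6 to 22 at 26 °C (20), 98 to 253 on average (255), 44 to 152 for temperature in white light (139), 40 to 379 under far-red (250) and 655 to 1357 on average (1227). Array weights gave 398, 71, 835 and 1614 for the first 4, 2247 for average temperature and 2 for the interaction. Without the lowest 50% of probe sets temperature gave 220 calls in white light and 422 under far-red, and eBayes with trend 217 and 429. Without both arrays the counts were 88, 11, 136, 46, 25 and 466. With the replicate number as a block they were 84 for far-red at 22 °C and 88 and 138 for temperature in white light and under far-red, and the block changed no average temperature call of a listed ER-body gene and no far-red or interaction call of PYK10, JAL23 and AT1G54020. Of 12 arrays, 2 correlated best with an array of their own number. Scaling moved the split of far-red calls: 188 higher and 67 lower on average became 106 and 150 with array medians subtracted, 123 and 92 with upper quartiles, 129 and 82 with quantile and 130 and 80 with cyclic loess normalisation. At 22 °C, 108 and 42 became 57 and 103, 64 and 50, 77 and 56, and 88 and 59. The largest shift of the median probe set was -0.065.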
